A study of Canis lupus familiaris with 8 samples.

Results

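The genes described here are 10 components and early targets of the NF-kB pathway: IRAK2, NFKBIA, NFKBIZ, TNFAIP3, NFKB1, NFKB2, RELB, BIRC3, CXCL8 and ICAM1. They were chosen by gene symbol with earlier results of these data known, and all 10 were among the 37952 genes of the deposited count table. Of the 10, 9 were among the 14571 genes with enough reads to be tested, and CXCL8 was not. RNA was sequenced from monolayers of MDCK GII, an established dog kidney epithelial cell line, which had been cultured overnight on a collagen-coated elastic silicone membrane in serum-containing medium. Stretch wells (n = 4) were held at 18% equal biaxial static strain for 2 hours, and control wells (n = 4) were not strained. Neither group carries a labelled genetic change, and the 8 wells are technical replicates of a single line divided at random over several devices, so p-values measure only the spread between wells.

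NF-kB is a family of transcription factors that are kept in the cytoplasm by inhibitor proteins of the IkB family until a kinase complex marks the inhibitor for destruction. Toll-like and interleukin-1 receptors reach that kinase through the adaptor MYD88 and kinases of the IRAK family, and receptors of the tumour necrosis factor family reach it by other adaptors. The freed factors switch on their own inhibitors within the first hours, together with survival factors, chemokines and adhesion molecules, so the inhibitor transcripts are commonly used as early readouts of the pathway. In kidney tubule epithelium, injury and inflammatory cytokines are known to induce the pathway.

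Total counts ranged from 27047358 to 32478887 per well. The cells carried epithelial transcripts: 9 of 9 epithelial markers, CDH1 and EPCAM among them, were detected, and their summed level was 5059 to 5630 CPM (read counts after TMM scaling for library size) in unstrained wells and 5352 to 5440 in strained ones. The 10 leukocyte markers summed to 6.41 to 7.34 CPM without strain and 5.73 to 7.04 with it, with PTPRC, ITGAM, AIF1, CD3E, LYZ and TYROBP at 0 counts in all wells. The 7 fibroblast markers summed to at most 4.22 CPM and the 6 endothelial markers to at most 2.37 CPM in any well. The markers were not uniform within a list (genes named after their values were seen). The epithelial marker CDH16 had 1.27 ± 0.42 CPM in control wells. Most of the leukocyte sum came from CD14 (6.30 ± 0.43 CPM), and most of the fibroblast sum from PDGFRA (3.07 ± 1.08 CPM). On the first principal component (31.3% of the variance), the 4 wells of replicates 1 and 2 lay apart from the 4 wells of replicates 3 and 4 whatever their group, so the members that passed are also given within each of these sets.

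Per exon length, ICAM1 was the most abundant member in control wells, at 19.8 ± 4.61 RPKM (CPM divided by exon length in kilobases; mean ± SD, n = 4). NFKB1 followed at 15.6 ± 1.15 and NFKBIA at 13.7 ± 0.792, and the wells of each overlapped those of the next. Below a gap came NFKB2 at 8.04 ± 0.936 RPKM and NFKBIZ at 5.92 ± 0.890, which overlapped each other. IRAK2 at 4.41 ± 0.373 lay below every control value of NFKBIZ and overlapped RELB at 3.63 ± 0.637, which in turn overlapped BIRC3 at 2.97 ± 0.555. TNFAIP3 was lower than BIRC3 in all control wells, at 1.41 ± 0.398 RPKM. After stretch, IRAK2 stood at 6.88 ± 0.770 RPKM, above the mean of NFKBIZ (6.38 ± 0.375) with overlapping wells, and BIRC3 at 4.10 ± 0.799 stood above the mean of RELB (3.66 ± 0.301), again with overlap. The other members kept their order of means.

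**Figure D1:**
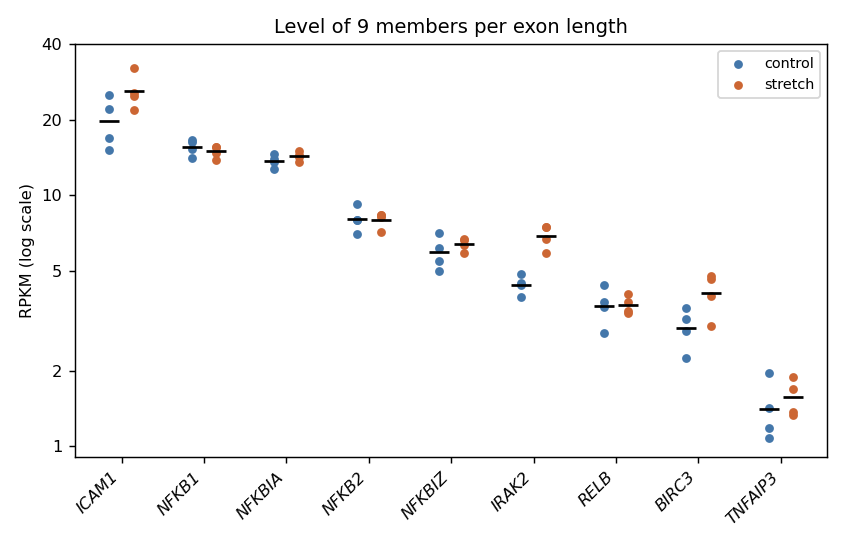
Level of 9 members in RPKM on a log axis, with each point 1 well (blue control, orange stretch) and black bars at the group means; CXCL8, at 0 to 2 counts per well, is not drawn. IRAK2 is the member whose stretch wells (5.86 to 7.50 RPKM) all lie above its control wells (3.94 to 4.85 RPKM).

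With wells paired by replicate number, IRAK2 and ICAM1 were higher after stretch, by 1.56-fold (95% interval 1.36 to 1.79) and 1.33-fold (1.22 to 1.44). BIRC3 had a 1.38-fold difference (1.15 to 1.64) that did not pass over all genes. The mean levels of the 3 inhibitor members (NFKBIA, NFKBIZ and TNFAIP3) and the 3 subunit members (NFKB1, NFKB2 and RELB) differed between groups by amounts smaller than the control SD. In the edgeR fit without a pairing term, 0 of the 9 tested members had an adjusted p under 0.05, where 0% of all 14571 genes passed. At an unadjusted p under 0.05 there were 2 members, IRAK2 and BIRC3, against 3.97% of all genes. DESeq2 without a pairing term called 1 member, IRAK2, where it called 0.286% of all genes, and limma-voom called 0. Deviations from the group means were weakly correlated between same-numbered wells (0.108 to 0.328). When the replicate number entered the model as a block, edgeR called 2 of the 9 members, IRAK2 and ICAM1, both higher after stretch. This fit called 0.700% of all genes, 0.528% as higher after stretch. Adjusted p-values of edgeR below come from this paired fit unless another is named. The median log2 fold change was 0.11 over the 9 members and -0.0032 over all tested genes, without the block. Of the members, 7 had a positive and 2 a negative value, against 48.2% positive among all tested genes. Since the members were chosen with earlier results of these data known, their shares beside all genes are a description only. In such bulk samples, a change in the number of cells that express a gene and a change in its RNA per cell cannot be told apart.

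**Figure D2:**
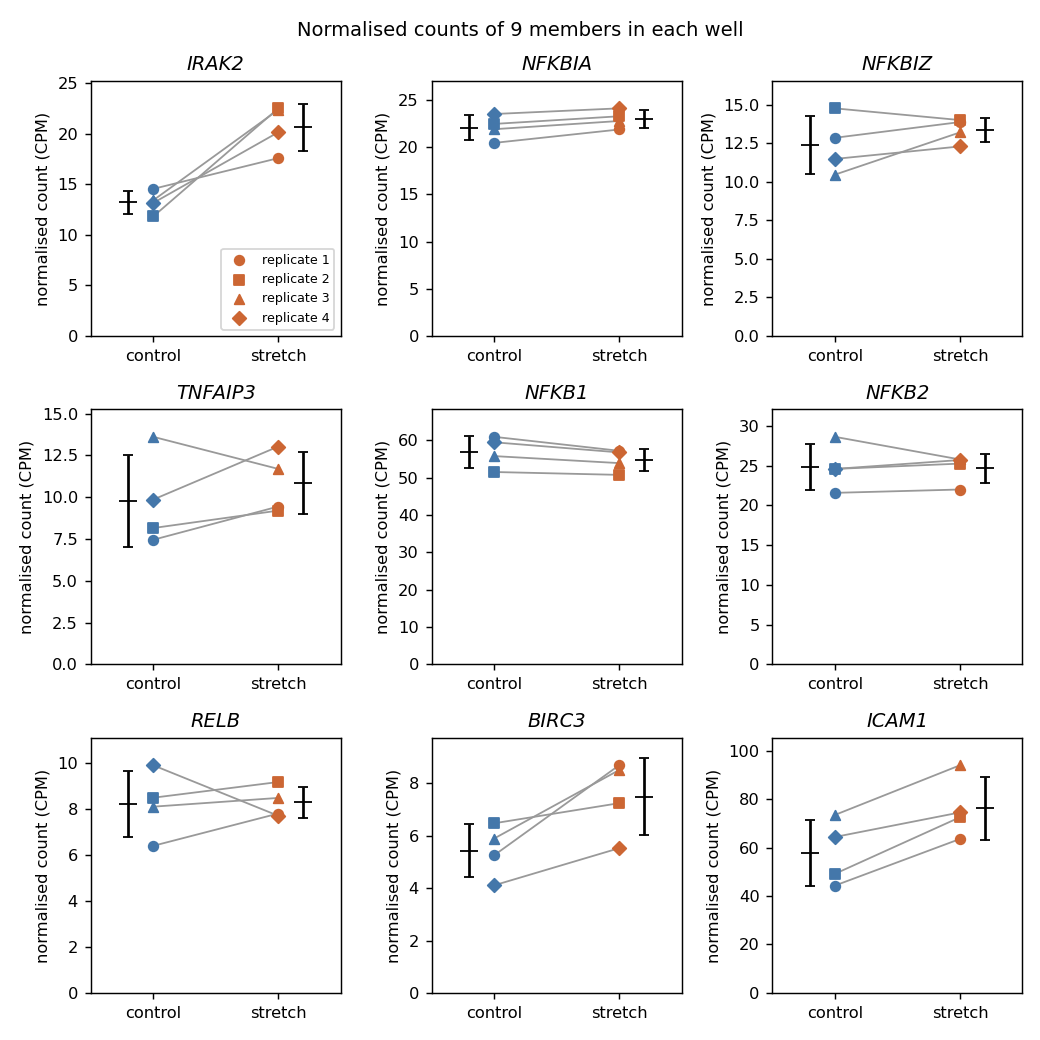
Normalised counts (CPM) of 9 members in each of the 8 wells; grey lines join control and stretch wells of the same replicate number, marker shapes give that number, and black bars show mean ± SD (n = 4). IRAK2 runs from 11.8 to 14.5 CPM in control wells and from 17.6 to 22.5 in stretch wells, and ICAM1 goes up along all 4 lines although its groups overlap.

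IRAK2 encodes an interleukin-1 receptor-associated kinase that joins the MYD88 complex and passes the signal on towards the IkB kinases. The gene lies on dog chromosome 20 (8204711 to 8267937, minus strand), and no other gene of the table overlaps it. Control replicates 1 to 4 had 14.5, 11.8, 13.4 and 13.2 CPM, and stretch replicates 1 to 4 had 17.6, 22.5, 22.4 and 20.1 CPM. Every stretch well exceeded every control well, which held for 1 of the 10 members and for 1.30% of all tested genes. The fit without pairing gave a log2 fold change of 0.64 ± 0.10 (SE; 95% interval 0.43 to 0.86; edgeR, adjusted p = 0.0937). With the block, the value was 0.64 ± 0.09 (edgeR, adjusted p = 0.00248). In DESeq2 without the block the adjusted p was 1.43e-05.

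The rise in IRAK2 was uneven between pairs. Same-numbered wells differed by log2 values of 0.27, 0.93, 0.74 and 0.61 for replicates 1 to 4, so replicate 1 had the smallest difference, with the highest control value and the lowest stretch value. In the fit without the block, IRAK2 passed when stretch replicate 1 was left out (edgeR, adjusted p = 0.0310). It did not pass there when any other single well was left out (edgeR, adjusted p from 0.0657 to 0.386). In the paired fit it passed whichever pair was left out, with edgeR adjusted p from 0.00120 to 0.0447. The log2 fold change of IRAK2 was 0.61 within replicates 1 and 2 (edgeR on these 4 wells, adjusted p = 0.0644) and 0.68 within replicates 3 and 4 (adjusted p = 0.0137). A block with only these 2 levels called 0.398% of all genes and 1 member, IRAK2 (edgeR, adjusted p = 7.73e-04).

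The other kinases of the IRAK family on the pathway lists were compared by the same fit. In edgeR with the block, IRAK1 had a log2 fold change of -0.13 (adjusted p = 0.436), IRAK3, a kinase-like inhibitor of the receptor complex, had -0.02 (adjusted p = 0.983), and IRAK4, the kinase that starts the cascade, had 0.02 (adjusted p = 0.983). IRAK3 and IRAK4 were picked out after their values were seen. Control wells had 66.9 ± 6.99 CPM of IRAK1, 32.01 ± 3.56 of IRAK3 and 24.96 ± 2.59 of IRAK4.

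Over the 8 wells, the genes whose log2 CPM followed IRAK2 most closely among 13130 genes with at least 1 CPM on average were ALAS1, PICK1, PER1, RUSC2 and CHAC1, with Pearson r of 0.968, 0.965, 0.945, 0.942 and 0.932. These are the 5 highest of many values over 8 wells that share the group difference and the libraries, so they are given as a description. ALAS1 encodes the first enzyme of haem synthesis, PER1 a circadian clock repressor that is also an early response gene, and CHAC1 an enzyme that degrades glutathione. ALAS1 went from 77.4 ± 3.56 to 103.8 ± 9.24 CPM and CHAC1 from 5.25 ± 0.353 to 7.68 ± 0.902 CPM, which gave log2 values of 0.42 and 0.55 in the block fit of edgeR (adjusted p = 0.00230 and 0.0451). PICK1, PER1 and RUSC2 had log2 fold changes of 0.19, 0.23 and 0.23 and did not pass there (adjusted p = 0.359, 0.0990 and 0.296). None of the 5 is on the NF-kB lists used here.

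The inhibitor transcripts were measured next. NFKBIA encodes IkB-alpha, the classical inhibitor that NF-kB itself induces; it lies on chromosome 8 (14262614 to 14265883). Its control wells had 20.5, 22.5, 21.9 and 23.5 CPM and its stretch wells 21.9, 23.3, 22.8 and 24.1 CPM. The groups overlapped, although each stretch well was slightly above its same-numbered control. Its log2 fold change was 0.059 ± 0.072 without the block and 0.060 ± 0.062 in the block fit (edgeR, adjusted p = 0.893). The 95% interval of the first reached 0.21, which corresponds to a 1.16-fold increase.

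NFKBIZ encodes an atypical nuclear IkB protein that helps NF-kB switch on a set of secondary genes, and lies on chromosome 33 (8558667 to 8568280). Control wells had 12.9, 14.8, 10.5 and 11.5 CPM and stretch wells 13.9, 14.00, 13.2 and 12.3 CPM, with overlap. A log2 fold change of 0.11 was obtained in both fits, with 95% limits of 0.911-fold and 1.27-fold without the block (edgeR, block fit, adjusted p = 0.824).

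TNFAIP3 encodes A20, a ubiquitin-editing enzyme that shuts the pathway down, and lies on chromosome 1 (30484573 to 30499998). Control wells had 7.45, 8.16, 13.6 and 9.86 CPM and stretch wells 9.44, 9.20, 11.7 and 13.0 CPM. The groups overlapped, and 3 of 4 pairs were higher after stretch. In both groups the mean of replicates 3 and 4 was above that of replicates 1 and 2: 11.7 against 7.81 CPM in control wells and 12.4 against 9.32 in stretch wells. The log2 fold change was 0.17 ± 0.11 in the block fit (edgeR, adjusted p = 0.756) and 0.15 ± 0.18 in the other, where its 95% interval reached 1.47-fold, so this gene was measured with less precision than NFKBIA.

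Among the subunits, NFKB1 on chromosome 32 (15842831 to 15961478) encodes the precursor of a DNA-binding subunit of the classical pathway. Control wells had 60.95, 51.5, 55.8 and 59.5 CPM and stretch wells 57.2, 50.8, 53.9 and 56.8 CPM. The groups overlapped, and all 4 stretch wells were slightly below their same-numbered controls. Both fits gave a log2 fold change of -0.058 (edgeR, block fit, adjusted p = 0.837), with 95% limits of 0.870-fold and 1.06-fold without the block.

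NFKB2 and RELB encode the partners of the non-canonical pathway, which is slower and runs through the kinase MAP3K14. NFKB2, on chromosome 28 (15093467 to 15101311), had 21.6, 24.6, 28.6 and 24.6 CPM in control wells and 22.0, 25.3, 25.8 and 25.7 in stretch wells. RELB, on chromosome 1 (111145641 to 111175691), had 6.39, 8.48, 8.09 and 9.89 CPM in control wells and 7.79, 9.16, 8.47 and 7.70 in stretch wells. In both genes the control wells spanned all the stretch wells. Without the block the log2 fold changes were -0.0096 ± 0.091 for NFKB2 and 0.0081 ± 0.13 for RELB, and both signs changed when single wells were left out. The block fit of edgeR gave adjusted p of 0.996 and 0.992. NFKB2 shares exon sequence with PSD on the opposite strand, which had 78 to 125 counts per well against at least 588 for NFKB2; how strand was used in counting is not given in the sources used here, so the value of NFKB2 is uncertain to that extent.

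Of the targets, ICAM1, the gene of an adhesion molecule that binds leukocyte integrins, lies on chromosome 20 (51216377 to 51225401, minus strand). Control wells had 44.3, 49.1, 73.4 and 64.3 CPM and stretch wells 63.5, 72.5, 93.9 and 74.5 CPM. The groups overlapped, since control replicate 3 lay above 2 of the stretch wells and control replicate 4 above 1, but all 4 stretch wells exceeded their same-numbered controls, by log2 values of 0.52, 0.56, 0.36 and 0.21. Without the block, ICAM1 had a log2 fold change of 0.40 ± 0.18 (edgeR, adjusted p = 0.9995), and with it 0.41 ± 0.06 (adjusted p = 0.00203).

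The call for ICAM1 rested on the pairing by number. In control wells, replicates 3 and 4 averaged 68.9 CPM and replicates 1 and 2 averaged 46.7 CPM, and in stretch wells 84.2 and 68.0 CPM. With a block for this division alone the gene did not pass (edgeR, adjusted p = 0.125), and with the full block it did not pass once the pair of replicate 1 was left out (adjusted p = 0.0513). Within replicates 1 and 2 its log2 fold change was 0.54 (edgeR on these 4 wells, adjusted p = 0.00129), and within replicates 3 and 4 it was 0.30 (adjusted p = 0.605); the difference between these was not tested. LOC119877329, on the opposite strand, shares exon sequence with ICAM1 but had 0 to 3 counts per well.

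BIRC3, which encodes a ubiquitin ligase that protects cells from death downstream of tumour necrosis factor receptors, lies on chromosome 5 (29466940 to 29478850). Control wells had 5.25, 6.47, 5.89 and 4.11 CPM and stretch wells 8.69, 7.24, 8.51 and 5.52 CPM. All 4 stretch wells exceeded their same-numbered controls, by log2 values from 0.16 to 0.73, and the groups overlapped through stretch replicate 4. Without the block, its log2 fold change was 0.46 ± 0.17 (95% interval 0.09 to 0.84; edgeR, unadjusted p = 0.0189, adjusted p = 0.9995). The block narrowed the error to 0.12 but the gene did not pass over all genes (edgeR, adjusted p = 0.112).

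CXCL8, on chromosome 13 (63485538 to 63488849), encodes interleukin-8, a neutrophil chemokine that is a classical NF-kB and AP-1 target of inflamed epithelium. It had 0 counts in the 4 control wells and 0, 1, 0 and 2 counts in stretch replicates 1 to 4. Over the 120054116 counts of the control wells, 0 counts allow up to 0.025 CPM by the limit of 3 counts, or 0.0307 by the exact Poisson 95% limit. The 3 counts among 117504100 in stretch wells correspond to 0.0255 CPM (exact Poisson 95% interval 0.00527 to 0.0746, for counting error only). Both groups were thus at or under 3 counts. By counting error alone, CXCL8 lay at no more than 0.0307 CPM in control wells and 0.0746 CPM in stretch wells. A change within these limits was not detectable at this depth.

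**Figure D3:**
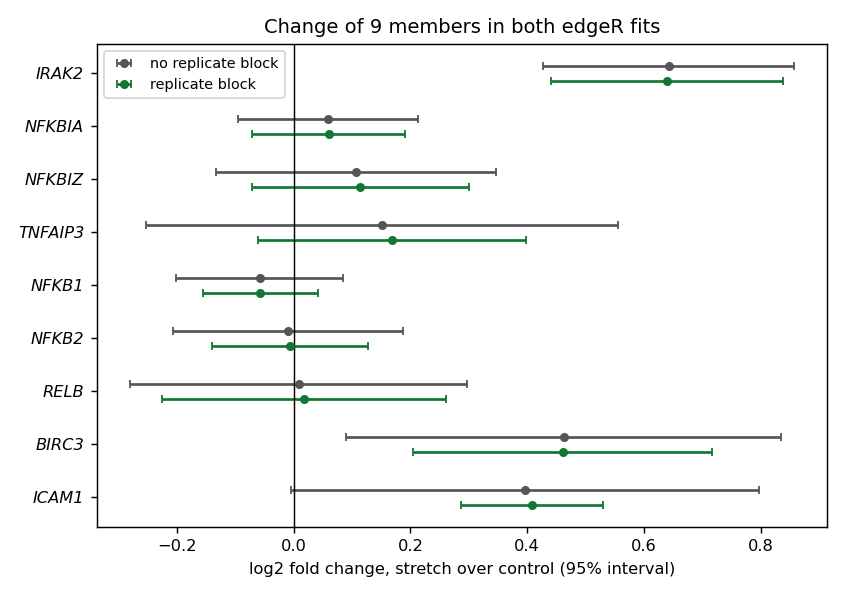
Log2 fold change of 9 members, stretch over control, in edgeR without (grey) and with (green) the replicate block; bars are 95% intervals and the vertical line marks no change. IRAK2 (0.64 in both fits) and BIRC3 (0.46 in both) lie right of 0 with and without the block, ICAM1 only with it, and the intervals of the other 6 members include 0 in both.

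The rest of the pathway was read from 104 further genes grouped by role, 101 of them present in the table and 79 abundant enough to test. Without the block 0 passed in edgeR, as for all genes, and 6 of the 79 (7.59%) had an unadjusted p under 0.05, against 3.97% of all genes. DESeq2 called 1, the early target SDC4, against 0.286% of all genes, and limma-voom 0. With the block 3 passed, against 0.700% of all genes; all 3 were early targets and higher after stretch. With the block, 17.7% of the 79 genes and 8.89% of all genes had an unadjusted p under 0.05. The median log2 fold change of the 79 genes was 0.034 without the block.

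Of the receptors, 13 were tested and 0 passed in edgeR with or without the block, where 0.700% and 0% of all genes passed. At an unadjusted p under 0.05 with the block there were 2 of 13 (15.4%), against 8.89% of all genes. TNFRSF12A, the receptor of the cytokine TWEAK, went from 139.0 ± 24.6 to 168.4 ± 25.3 CPM, which is 0.28 on the log2 scale in the block fit (edgeR, adjusted p = 0.107). IL1R1 and IL18R1, the receptors of interleukin-1 and interleukin-18, were low, at 1.63 ± 0.678 and 1.42 ± 0.5002 CPM in control wells, and had log2 fold changes of 0.51 and 0.36 there (adjusted p = 0.426 and 0.756).

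Of the adaptors and kinases, 28 were tested and 0 passed in either fit, where 0.700% of all genes passed with the block and 0% without. The median log2 fold change was -0.013. With the block, 2 of 28 (7.14%) had an unadjusted p under 0.05, against 8.89% of all genes. BIRC2, a ubiquitin ligase related to BIRC3 and located beside it on chromosome 5, had 39.6 ± 3.49 CPM in control and 43.8 ± 3.02 in stretch wells (log2 fold change 0.15; edgeR, block fit, adjusted p = 0.303). IKBKB, the IkB kinase subunit of the classical pathway, had a log2 fold change of 0.10 (adjusted p = 0.653). The remaining subunits and IkB genes counted 6, of which 0 passed, against the same shares of all genes. BCL3, a nuclear IkB protein, had 25.8 ± 6.23 and 30.6 ± 2.67 CPM (log2 fold change 0.26; adjusted p = 0.407), and NFKBID and NFKBIB had log2 fold changes of -0.33 and 0.06 (adjusted p = 0.750 and 0.863); both share exon sequence with a gene on the opposite strand and are uncertain.

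The 13 tested brakes, which include deubiquitinases and A20-binding proteins, had log2 fold changes from -0.081 to 0.081 without the block. In edgeR 0 passed, against 0.700% of all genes with the block and 0% without. At an unadjusted p under 0.05 there were also 0, against 8.89% of all genes with the block and 3.97% without. DESeq2 called 0 brakes, against 0.286% of all genes, and limma-voom 0. With 13 genes, these counts of 0 are near the shares of all genes. TANK, TAX1BP1 and TNIP2 had the smallest p with the block, and their log2 fold changes were 0.08, 0.03 and -0.08 (block fit of edgeR, adjusted p = 0.862, 0.894 and 0.900).

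Of the 35 other early targets listed, 33 were in the table and 19 were tested. Of these, 18 (94.7%) had a positive log2 fold change without the block, against 48.2% of all tested genes, and the median was 0.20. The block fit of edgeR called 3 and the other 0. At an unadjusted p under 0.05 there were 9 (47.4%) and 6 (31.6%) of the 19 genes, against 8.89% and 3.97% of all genes. Of the 9, 8 were higher after stretch and 1 was lower. The lower gene, EFNA1 (named after its values were seen), had a log2 fold change of -0.22 in both fits and also counted among the 6. NUAK2, a stress-activated kinase that is also a known YAP target, went from 26.7 ± 8.69 to 40.8 ± 12.8 CPM. SDC4, a matrix-binding syndecan of the cell surface, went from 101.6 ± 7.78 to 124.4 ± 6.45 CPM, and CFLAR, an inhibitor of death-receptor signalling, from 52.6 ± 4.19 to 64.4 ± 5.68 CPM. Their log2 fold changes were 0.61, 0.29 and 0.29 in the block fit of edgeR (adjusted p = 1.63e-04, 0.00230 and 0.00456). When the block had 2 levels, SDC4 and CFLAR passed (adjusted p = 0.00365 and 0.0440) and NUAK2 did not (0.601). These genes respond to other pathways as well, and the list was drawn up with earlier results of these data known.

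Several early targets were not detected. Of the 33 in the table, 14 were not tested, and 7 of them (IL1B, TNF, VCAM1, SELE, CD83, CSF3 and PTX3, named after their values were seen) had 0 counts in all 8 wells, which allows up to 0.0126 CPM over the 237558216 counts of all wells. IL1B and TNF share exon sequence with a gene on the opposite strand, so this limit is uncertain for them.

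**Figure D4:**
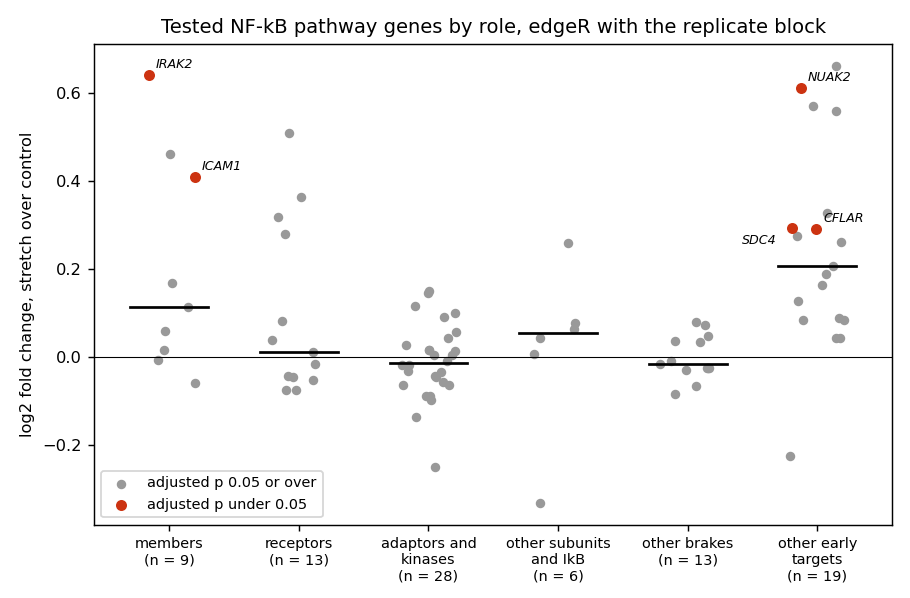
Log2 fold change with the replicate block of each tested gene, grouped by role; black bars are group medians, and red points, named, have an edgeR adjusted p under 0.05. The 5 named genes are IRAK2, ICAM1, NUAK2, SDC4 and CFLAR, while the receptors, adaptors and kinases, subunits and brakes hold 0.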

How the data were processed

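RNA was sequenced from polyA-selected stranded TruSeq libraries, per the labels' protocols. The authors deposited unnormalised read counts per gene, summed over its exons. FastQC 0.11.8, Trim Galore 0.6.5, STAR 2.7.3a and featureCounts of Subread are named in the submitters' processing notes; strand setting and treatment of multi-mapped reads are not given in the sources used here. The deposited table also gives exon length per gene, used for RPKM, so RPKM are not the authors' values. All 8 count columns were matched to a sample by library name, and 0 were left over. The table names no build; 37291 symbols matched RefSeq genes of UU_Cfam_GSD_1.0, all 37291 with identical start and end, and coordinates follow the table.

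Counts were tested over the whole table with edgeR 4.0.16 in R 4.3.3 (quasi-likelihood test, robust, TMM factors, filterByExpr with a minimum count of 10 and a total of 15; two-sided p, Benjamini-Hochberg over 14571 genes, threshold 0.05). Intervals are 95%. Log2 CPM used a prior count of 2. The main design had a stretch term only. Same-numbered wells had correlated deviations from their group means across genes (0.108 to 0.328 over 4 pairs), so results with the replicate block stand beside it. Wells of different numbers were not compared in this way. The correlations thus do not separate the number from the division of replicates 1 and 2 from replicates 3 and 4. The labels do not say what a number shares. Alternatives used DESeq2 1.42.0, limma-voom (limma 3.58.1), other scalings and filters, and fewer wells. The code was tested on simulated data. Figures used matplotlib 3.10.9. A planned description of promoter motifs was not made, as no promoter sequences were used here.

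The members and gene lists were chosen with earlier results of these data known. Besides the members, the text names listed genes past the threshold with the block, the 3 with the smallest p per list, and the 5 most correlated with IRAK2; others are marked as named after their values were seen. Listed genes not in the table used here were not analysed.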

Additional observations from a re-analysis of the deposited data

Results flagged for a closer look

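For NFKB2, stretch replicate 1 had 22.0 CPM while the other stretch wells had 25.3 to 25.8 CPM, a gap of 0.862 of the range of the 4 wells, above Dixon's critical value at the 95% level. It was the lone such well among 18 groups of 4 wells examined for the 9 tested members, where about 0.9 would be found by chance. Without this well the log2 fold change of NFKB2 was 0.045, against -0.0096 with it.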

How the results depend on the processing

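The calls depended on the model. Without the replicate block, 0 members, 0 further pathway genes and 0 of all genes passed in edgeR, and these counts stayed at 0 with limma-voom, DESeq2 size factors, library size only and at least 10 counts in every well. DESeq2 called 1, 1 and 40, and edgeR without a count filter 1, 0 and 11. With the replicate block the counts were 2, 3 and 102, and with a block of 2 levels 1, 2 and 58. Combined with the replicate block, DESeq2 called 2, 5 and 145, limma-voom 2, 4 and 122, DESeq2 size factors 2, 3 and 105, library size only 2, 3 and 111, at least 10 counts in every well 2, 3 and 97, and no filter 3, 10 and 448, where BIRC3 was the third member (log2 fold change 0.46, adjusted p = 0.00687 in edgeR). Replicates 1 and 2 alone gave 1, 2 and 51, and replicates 3 and 4 alone 1, 0 and 25. Leaving out each well without the block gave 0 to 1 members, 0 pathway genes and 0 to 12 of all genes, the 12 without control replicate 3. Leaving out each pair in the paired fit gave 1 to 2, 2 to 7 and 43 to 186, with 43 without replicate 1 and 186 without replicate 3.

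Of the 28 alternatives, all kept the sign of IRAK2, NFKBIA, NFKBIZ, TNFAIP3, NFKB1, BIRC3 and ICAM1. IRAK2 passed in 16, with log2 fold changes from 0.55 to 0.76 over the 28, and ICAM1 in 11, with 0.28 to 0.54. NFKB2 and RELB, near 0, changed sign in 4 and 7. NFKB2 was 0.066 without control replicate 3, 0.045 without stretch replicate 1, 0.043 without pair 3 and 0.031 in replicates 1 and 2. RELB was -0.091 without control replicate 1, -0.040 without stretch replicate 2, -0.0019 without stretch replicate 3, -0.15 in replicates 3 and 4, and -0.064, -0.011 and -0.0021 without pairs 1, 2 and 3 in the paired fit. The lowest and highest values over single wells or pairs left out were -0.068 and 0.066 for NFKB2 and -0.091 and 0.15 for RELB. CXCL8, with 0 to 2 counts per well, was too low for a fold change to be compared.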

Other observations

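The tested genes nearest to IRAK2 and ICAM1 were looked up after the values of those genes were seen. Within 58.7 kb of IRAK2 lie TATDN2 and SEC13 at lower coordinates and VHL and BRK1 at higher ones, TATDN2 at 2.41 kb and VHL at 9.38 kb. In edgeR with the block their log2 fold changes were -0.016, -0.0070, -0.042 and -0.0083, and none of the 4 passed (adjusted p from 0.937 to 0.992). Around ICAM1, FDX2, RAVER1, MRPL4 and S1PR2, the farthest at 27.6 kb, had log2 fold changes of -0.11, -0.083, -0.077 and -0.0052 in the same fit (adjusted p from 0.689 to 0.999).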
